A study of Drosophila melanogaster with 12 samples.

Results

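Open chromatin was compared between eworo and OreR, strains of *Drosophila melanogaster* whose second legs differ in the size of the naked valley, the patch of femur cuticle without trichomes. The regions described here are the high ATAC-Seq peaks of eworo that no OreR peak overlapped. They were chosen by the deposited peak lists alone: a pileup of at least 60 tags in eworo, no overlap of 1 bp with any OreR peak, and a position on chromosome arm 2L, 2R, 3L, 3R, 4 or X. Of 44398 eworo peaks in all, 21908 on these arms reached this height, and 754 of them (3.44%, 95% Wilson interval 3.21 to 3.69%) met the rule. They are called OreR-absent peaks below.

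The eworo strain carries *ebony*[4], *white ocelli*[1] and *rough*[1] and has a large naked valley, and OreR (Oregon R) is a laboratory strain with a small one. Both were raised at 25 °C, and legs were taken from pupae aged 20 to 28 hours after puparium formation. ATAC-Seq was made on 3 samples per strain and RNA-Seq on 3 libraries per strain, with second legs of about 80 pupae in a replicate. The strains differ in their whole genetic background, and for the chromatin there is 1 peak list per strain, so that differences between the strains, their cultures and their pooled libraries cannot be told apart at any peak, and no test was possible on peaks.

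ATAC-Seq uses a transposase that inserts adapters where the DNA is not covered by nucleosomes or other proteins. Such open regions include the promoters and enhancers of a cell, and a peak is a place where insertions pile up above their surroundings. In a whole leg the pileup is an average over epidermis, muscle, nerves, tracheae and blood cells, and fewer cells of a type cannot be told apart from a less open site in each cell. The peak caller, MACS2, gives the number of tags over the summit (the pileup) and compares it with a local background, which is never set below the average over the whole genome. That average was 22.4 tags in eworo and 23.7 tags in OreR, after 53862732 tags had been kept for eworo and 56972082 for OreR. The lowest pileup called was 39 tags in eworo and 41 tags in OreR, and the highest was 100 tags in both. The caller kept 1 tag per position and strand and extended each to 50 bp, so that no pileup could exceed 100 tags and differences between high pileups are compressed.

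The OreR-absent peaks were low among the high peaks, narrow and weakly raised above their surroundings. Their median pileup was 63 tags (range 60 to 87), against 70 tags for the 21154 high eworo peaks that an OreR peak overlapped. Their median length was 86 bp (50 to 1200 bp), against 219 bp. Their median fold over the local background was 1.84 (1.47 to 3.67), against 2.57, and their median −log10 q was 4.18, against 9.53. The median local background itself was 33.9 tags, against 26.8 tags. A length of 100 bp or less was found for 63.4% of the OreR-absent peaks and for 6.74% of the shared ones. Height, length and fold come from the lists that chose the peaks and are descriptions.

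At the cut-off on height the peaks changed gradually. There were 126 OreR-absent peaks with a pileup of 60 tags and 85 with 61 tags, and just below the cut-off 138 eworo peaks without an OreR partner had 59 tags and 145 had 58 tags. Their median folds were 1.86, 1.93, 1.90 and 1.94. In the other direction 563 of 22397 high OreR peaks (2.51%) had no eworo partner, with a median pileup of 63 tags, a median length of 82 bp and a median fold of 1.85. The mirror set was therefore close in height, length and fold to the OreR-absent peaks.

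Most OreR-absent peaks lay beside a peak that was called in OreR. The median distance to the nearest OreR summit was 477 bp (80 to 104051 bp), and the median distance to the nearest OreR peak edge was 308 bp. The nearest OreR summit was within 500 bp for 52.1%, within 1 kb for 73.3% and within 5 kb for 96.6%, which left 26 peaks farther away. Another eworo peak lay within 1 kb of the ends of 83.4% of them, against 87.2% of shared peaks.

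The share of high eworo peaks without an OreR partner followed height and background. It was 7.96% at pileups of 60 to 64 tags, 4.04% at 65 to 69, 1.77% at 70 to 74, 0.783% at 75 to 79 and 0.36% from 80 tags. Across local backgrounds it was 1.40% at the genome-wide average, 0.566% from there to 26 tags, 1.87% from 26 to 30, 5.10% from 30 to 34, 10.9% from 34 to 38, 12.2% from 38 to 42 and 15.8% from 42 tags. Peaks on a high local background were thus absent from OreR more often than those on a low one, apart from the lowest class, which lay above the next. These shares use the measures of the rule and carry no test.

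**Figure D1:**
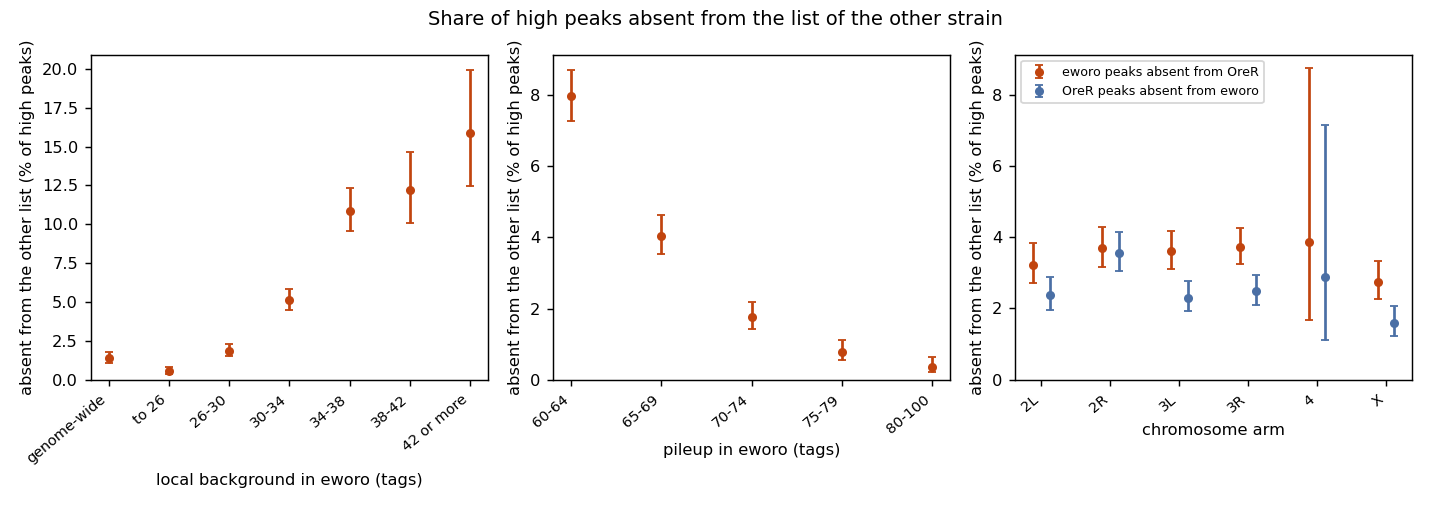
Share of high peaks without a partner in the other strain, in percent of high peaks, by local background in eworo (left), by pileup in eworo (middle) and by chromosome arm (right, eworo peaks absent from OreR left of OreR peaks absent from eworo). Points are shares and bars are 95% Wilson intervals, which cover counting error only. The share is 15.8% on the highest backgrounds and 0.36% for pileups from 80 tags.

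The caller's own statistics give a lower bound for the pileup that OreR would have listed near these peaks. In both lists the deposited −log10 p equals the Poisson tail of the pileup over the local background (largest difference 7.94e-05 in eworo and 7.3e-05 in OreR). The lowest pileup that passes in OreR can therefore be computed at the background of the nearest OreR peak. This was done for the 728 OreR-absent peaks with an OreR summit within 5 kb. The computation uses the summit alone. No listed peak was shorter than 50 bp in either strain, so that a narrow site above the limit need not be listed. This limit had a median of 56 tags (41 to 82 tags). The eworo pileup minus this limit had a median of 8 tags (-13 to 34 tags). It was 0 or less for 43 of the 728 (5.91%), at most 5 tags for 32.3%, counting those 43, at most 10 for 65.2%, and more than 20 tags for 7.69%. The pileups of shared peaks, which had to be called in both strains, differed by a median of 0 tags with an SD of 4.67 tags. The OreR pileup at a place without an OreR peak is not in the lists and was not analysed here.

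**Figure D2:**
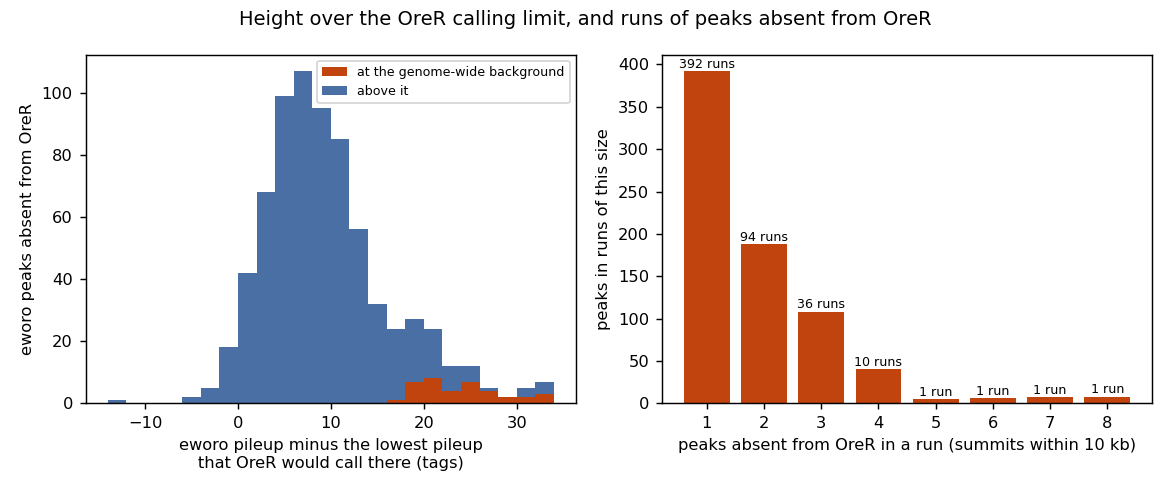
Left, number of OreR-absent peaks by the eworo pileup minus the computed limit for a call in OreR (tags), coloured by kind of background. The limit is taken at the background of the nearest OreR peak, for the 728 with an OreR summit within 5 kb. Right, number of OreR-absent peaks in runs of each size, with the number of runs above each bar. The median excess is 8 tags, and 392 peaks stand alone.

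By local background the OreR-absent peaks fell into a large and a small group. For 692 of them the local background was above the genome-wide average. These had a median fold of 1.81, and 77.7% lay within 1 kb of an OreR summit. The other 62 (8.22%) stood on the genome-wide average itself, against 20.7% of shared high eworo peaks and 14.7% of the mirror set in OreR. Their median fold was 2.82 (up to 3.67; a pileup of 60 on this background gives 2.60, so that the rule sets the lower end), their median length was 139.5 bp, and their median distance to the nearest OreR summit was 3176.5 bp. For the 38 of them with an OreR summit within 5 kb the OreR limit was 41 to 45 tags, and the cut-off of 60 tags alone puts all of them at least 15 above it. The median excess was 23 tags. Of the 62, 24.2% lay within 1 kb of an OreR summit. They sat in a RefSeq gene span in 40.3% of cases, against 76.2% of the 692, and more than 5 kb from any gene in 27.4%, against 5.20%.

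**Figure D3:**
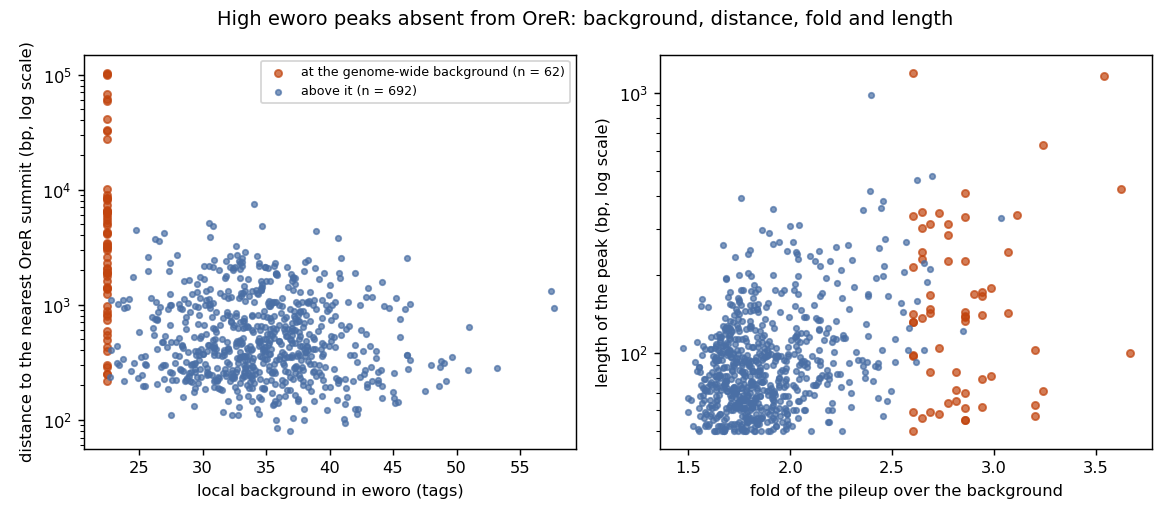
The 754 OreR-absent peaks, with those at the genome-wide background in orange and those above it in blue. Left, distance to the nearest OreR summit (bp, log scale) against local background in eworo (tags); right, length (bp, log scale) against fold of the pileup over the background. The 62 orange peaks hold all distances beyond 20 kb.

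X had the lowest share of the arms, both here and in the mirror set. The share of high eworo peaks without an OreR partner was 3.23% on 2L (128 peaks), 3.69% on 2R (158), 3.60% on 3L (164), 3.73% on 3R (198), 3.88% on chromosome 4 (5 of 129) and 2.75% on X (101). The Wilson intervals of all arms overlap, those of 3R (3.25 to 4.27%) and X (2.27 to 3.33%) only just. The share of the mirror set was 3.56% on 2R (3.06 to 4.14%) and 1.59% on X (1.22 to 2.07%). These 2 intervals do not overlap, and the shares of the other arms lay in between. On chromosome 4, the small and largely heterochromatic chromosome, all 5 OreR-absent peaks were at the genome-wide background, and 4 lay beyond its last annotated gene. The share of its other 124 high eworo peaks at that background is not given.

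The 11 OreR-absent peaks with 80 tags or more belonged to both groups. The highest of all, 87 tags at 2L:2197696-2197754 (59 bp, Release 6), lay in the span of *COX7AL2*, a gene for a subunit of cytochrome c oxidase by name, on a local background of 57.7 tags, so that its fold was 1.5. Its neighbour at 2L:2201525-2201628 had 85 tags and a fold of 1.47, and the limit for a call in OreR was 82 tags beside the first and 78 tags beside the second. The same held for 83 tags at 2L:12010153-12010202 and 80 tags at 2L:12005813-12005963, near *Rh5*, which encodes a rhodopsin, and for 80 tags in the span of *S6KL* on X (fold 1.56), in the span of *Glut4EF* on 3R (fold 1.60) and in the span of the non-coding *CR44676* on 3L (fold 1.72). In contrast, 82 tags at 2L:4028761-4029121, 2410 bp from *ed*, which encodes the adhesion molecule Echinoid, stood on 32.9 tags with a fold of 2.45. The limit for a call in OreR was 52 tags there. The other 3, at the tips of 2R and 4, had folds above 3.5.

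Beyond the last annotated gene of an arm lay 7 OreR-absent peaks, 3 on 2R and 4 on chromosome 4, and all 7 were at the genome-wide background. On 2R, where the last gene ends at 25255318, they had 74 tags (25275304-25275405), 85 tags (25275560-25275659) and 84 tags (25279746-25280172), and the stretch between the flanking OreR summits was 16082 bp long. In the same stretch eworo had lower peaks of 46 to 57 tags. On chromosome 4, where the last gene ends at 1271759, the peaks had 74 tags (1278585-1278641), 65 tags (1293145-1293216), 66 tags (1295409-1295634) and 82 tags (1305775-1306940). The last of these was 1166 bp long and 10146 bp from the nearest OreR summit. The high peaks on either side of it, 90 and 89 tags in eworo, were also called in OreR, with 71 and 81 tags.

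The 4 peaks at the tip of chromosome 4 lay within a locus of 32655 bp (4:1274656-1307310) in which the authors' strain comparison lists a pair of transcribed entries without a gene name. The authors' pooled values were 3.58 FPKM in eworo against 0.0452 FPKM in OreR for the first, and 2.33 FPKM in eworo against 0.506 FPKM in OreR for the second. Here the peaks were listed only in eworo and the pooled RNA values were higher in eworo. The pooled values have no replicates, the entries have no counterpart by name in the libraries, and they were chosen because the locus is among those with the most OreR-absent peaks.

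A block on X stood far from any OreR peak. Between 11196141 and 11199532 eworo had 8 peaks of 47 to 66 tags over 3392 bp, and none of them overlapped an OreR peak. Of these, 2 reached the cut-off, with 66 tags (11196356-11196492, 137 bp) and 60 tags (11197298-11198497, 1200 bp, the longest of all OreR-absent peaks). The flanking OreR summits lay 104 kb (104227 bp) apart, at 11164287 and 11268514, and eworo had 10 peaks without a partner in this stretch. The nearest annotated gene was the non-coding *CR44765*, 2913 bp from the first of the 2 summits. In all, 25 stretches of more than 20 kb without an OreR summit held 31 OreR-absent peaks.

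Several of these stretches lie near centromeres, where genes are sparse. On 3L the peak at 27629433-27629494 (68 tags) lay in a stretch of 305765 bp without an OreR summit, and the peak at 25574453-25574511 (60 tags) in the span of *lovit* lay in one of 247511 bp. The peak farthest from any OreR summit, 104051 bp, was at X:21843110-21843174 (65 tags). It lay 52410 bp from *flam* (*flamenco*), the piRNA locus that silences retrotransposons in the ovary. On 2R a peak of 66 tags at 2661241-2661295 was 95880 bp from the nearest gene. These peaks were short, from 55 to 65 bp.

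**Figure D4:**
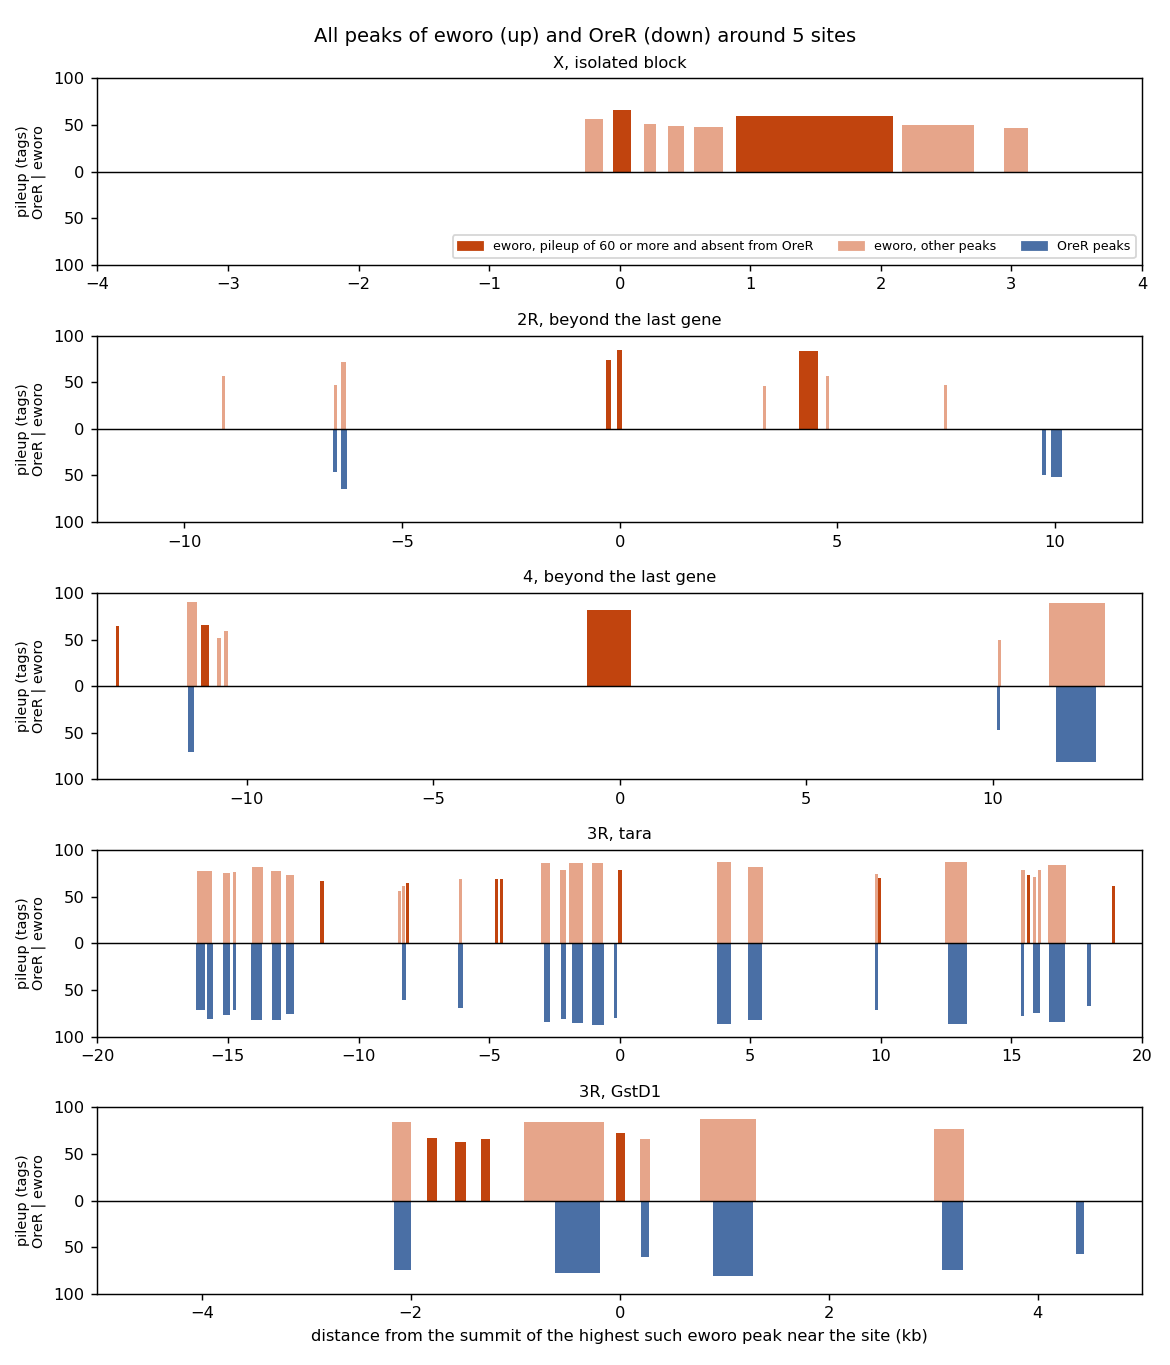
All peaks of eworo (up) and OreR (down) around 5 sites, as bars whose height is the pileup (tags) and whose width is the peak, widened to a minimum for narrow peaks, against the distance (kb) from the summit of the highest OreR-absent peak near the site. Dark orange marks OreR-absent peaks of at least 60 tags, light orange other eworo peaks and blue OreR peaks. The block on X faces an empty OreR track, while the peaks in *tara* and *GstD1* stand among peaks of both strains, including 2 in *tara* that are listed only in OreR.

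Of the 62 OreR-absent peaks at the genome-wide background, 25 lay in gene spans. *TrissinR*, which encodes the receptor of the neuropeptide trissin, held a peak of 74 tags with a fold of 3.20 (2L:5835609-5835671), 6636 bp from the nearest OreR summit. Its RNA was at 0.12, 0.151 and 0.118 FPKM in eworo, against 0.0598, 0.131 and 0.0647 FPKM in OreR. *CG15740* held a peak of 75 tags and 633 bp (X:11844153-11844785), with RNA at 0.0858 to 0.144 FPKM in eworo against 0.0221 to 0.0422 FPKM in OreR. Both genes were thus below 1 FPKM in every library. The homeobox gene *OdsH* held a peak of 75 tags with a fold of 3.24 (X:17793845-17793915), where the authors' pooled values were 1.39 FPKM in eworo legs, against 1.42 FPKM in OreR legs. Its library values are not given, since its entry was joined with *unc-4* in 2 OreR libraries. *fz2*, which encodes a receptor for Wingless, held one of 61 tags with a fold of 2.64 (3L:19216676-19216978). It was at 18.1, 64.6 and 41.6 FPKM in eworo legs, against 58.8, 39.3 and 67.2 FPKM in OreR, and its libraries overlapped.

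OreR-absent peaks stood alone or in short runs. With summits within 10 kb joined to a run, 392 stood alone, 94 runs had 2 peaks, 36 had 3, 10 had 4, and 1 run each had 5, 6, 7 and 8. Runs of 2 or more held 48.0% of the 754, and in the mirror set of 563 OreR peaks 38.5%. Such a share grows with the number of peaks on the arms and carries no test.

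Of the 4 longest runs, 3 lay in single genes and 1 in none. *tara*, which encodes the nuclear protein Taranis, spans 34679 bp (3R:16225651-16260329) and held 8 OreR-absent peaks among 22 high eworo peaks, with 62 to 79 tags and a median fold of 1.63. OreR in turn had 2 peaks there that no eworo peak overlapped, with 80 tags (16237175-16237244) and 67 tags (16255295-16255444). The first of these lay 103 bp from the edge of the highest OreR-absent peak of the run (79 tags, 16237347-16237404). *tara* RNA was at 19.6, 22.5 and 19.8 FPKM in eworo legs, against 23.4, 21.9 and 20.5 FPKM in OreR. The log2 difference was -0.08 ± 0.10 (SE, n = 3 each, limma adjusted p = 0.665), and the libraries of the strains overlapped. The next run, 7 of 18 high peaks in *a* (*arc*), which encodes a PDZ protein of adherens junctions, had a median fold of 1.64, and *a* was at 34.1, 48.5 and 39.1 FPKM in eworo legs, against 47.6, 48.1 and 49.8 FPKM in OreR. A run of 6 lay in no gene (3L:3386671-3400618). A run of 5 lay in *arr*, which encodes the Wingless co-receptor Arrow, among 20 high peaks, and *arr* was at 73.8, 61.2 and 48.1 FPKM in eworo legs, against 57.0, 61 and 60.2 FPKM in OreR.

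Other genes with many OreR-absent peaks were also long. *dpy*, which encodes the giant apical matrix protein Dumpy that holds epidermis to cuticle, held 7 among 19 high peaks over 136839 bp. It was at 4.02, 17.9 and 6.26 FPKM in eworo legs, against 24.1, 19.7 and 21.3 FPKM in OreR. In the authors' pooled values *dpy* alone was at 2.31 FPKM in eworo, against 1.94 FPKM in OreR. Joined with *ine* and *CG15443* it was at 36.4 FPKM in eworo, against 46.9 FPKM in OreR. The direction thus differed between these entries. *EcR*, the ecdysone receptor, held 4 among 36 high peaks, and its libraries overlapped between strains, with 10.9, 40.6 and 26.7 FPKM in eworo legs, against 42.9, 22.8 and 53.1 FPKM in OreR. *Raf*, a kinase of the EGF receptor pathway, held 4 among 23 within 754 bp. *ds*, which encodes the cadherin Dachsous of planar polarity, held 4 among 22, *sls*, the titin of fly muscle, 4 among 8, *Ten-m*, a teneurin, 4 among 28, and *Tlk*, a Tousled-like kinase, 4 among 41. Reads of *Tlk* were joined with those of other genes in the libraries, and the authors' pooled values were 11.8 FPKM in eworo legs, against 15.3 FPKM in OreR legs.

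In all, 73.2% of the OreR-absent peaks had their summit in a RefSeq gene span, against 64.4% of shared high eworo peaks, and 22.8% had the end of a gene within 500 bp, against 46.1%. They thus lay more often inside genes and less often near gene ends than shared peaks did. The mirror set of OreR peaks was close to them, with 69.4% in a gene span. Its median distance to the nearest gene end was 2721 bp, against 2662.5 bp for the OreR-absent peaks. A span of 10 kb or more held 55.8% of the OreR-absent peaks, against 40.2% of shared ones. Among high eworo peaks the share absent from OreR was 4.71% within spans of 10 kb or more, 2.50% in shorter spans and 2.61% outside genes. The OreR-absent peaks touched 408 genes, of which 372 code for protein (2.67% of 13911). These 372 had a median span of 20418.5 bp, against 2161 bp for all protein-coding genes, and 40 of the 408 held 3 or more. Of the 364 whose RNA is in all libraries, 312 (85.7%) were above 1 FPKM in both strains, against 49.1% of all 17592 genes. Span and RNA level are not given for genes that hold shared peaks or peaks of the mirror set. These contrasts with all genes therefore cannot be called particular to OreR-absent peaks.

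Genes of several developmental pathways held OreR-absent peaks. Of 40 signalling genes (Notch, Wnt, EGF, Hedgehog, Dpp and JAK/STAT), 14 held at least 1, and 26 of the 335 high eworo peaks in their spans (7.76%, Wilson 5.35 to 11.1%) were absent from OreR. Over all high eworo peaks this share was 3.44%, and within gene spans of 10 kb or more it was 4.71%. The interval treats neighbouring peaks as independent, although 5 of the 26 lay in *arr*. The lists were chosen with earlier results known, and the shares carry no test. The signalling genes include *arr*, the ligand *spi* (160.5 ± 13.3 FPKM in eworo legs, against 143.4 ± 5.4 FPKM in OreR), the Notch glycosyltransferase *fng* (196.3 ± 21.0 FPKM in eworo legs, against 175.5 ± 13.1 FPKM in OreR) and *Egfr* (72.5 ± 14.3 FPKM in eworo legs, against 95.3 ± 1.62 FPKM in OreR; SD, n = 3 each). Of the 25 compared by limma, none passed at an adjusted p under 0.05 in either direction, and 2 had an unadjusted p under 0.05. Among all 4848 genes or joined groups compared, 1.73% were higher and 0.908% lower, and 15.3% had an unadjusted p under 0.05. The median span of the 40 genes was 16282 bp.

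Of 28 transcription factors that pattern the leg, 7 held an OreR-absent peak, and 9 of 162 high peaks in their spans (5.56%) were absent from OreR. They include *bowl*, a zinc finger factor of the leg joints (158 ± 22 FPKM in eworo legs, against 221 ± 48 FPKM in OreR legs), and the Hox gene *Antp* of the second thoracic segment (5.94 ± 3.89 FPKM in eworo legs, against 9.77 ± 2.63 FPKM in OreR). Also among them are *trh*, which serves below as a tracheal marker too (16.5 ± 3.18 FPKM in eworo legs, against 21.5 ± 4.34 FPKM in OreR), and *Sp1*, a transcription factor of limb growth (101 ± 25 FPKM in eworo legs, against 131 ± 9 FPKM in OreR legs). Of the 14 compared by limma none passed the test, and 2 had an unadjusted p under 0.05, near the share over all compared. Of 16 genes of steroid signalling and timing 6 held such a peak, with 13 of 212 high peaks (6.13%). Beside *EcR* these include *Eip75B* (28.0 ± 19.2 FPKM in eworo legs, against 33.9 ± 15.97 FPKM in OreR) and *mld*, and the ecdysone response gene *br*, which held a peak of 64 tags and is listed at 0 FPKM in all 6 libraries.

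Of 20 trichome and actin genes 4 held an OreR-absent peak, and 5 of 100 high peaks in their spans were absent from OreR. The 4 are *chic*, which encodes profilin (795 ± 8 FPKM in eworo legs, against 923 ± 95 FPKM in OreR legs), *zip*, non-muscle myosin (117 ± 80 FPKM in eworo legs, against 181 ± 70 FPKM in OreR legs), *sn*, the bundling protein fascin (147 ± 22 FPKM in eworo legs, against 175 ± 13 FPKM in OreR legs), and *mwh*, which limits the number of hairs per cell (36.1 ± 2.58 FPKM in eworo legs, against 37.2 ± 6.84 FPKM in OreR). Of the 10 compared by limma none passed the test, and 3 had an unadjusted p under 0.05 (15.3% over all compared). Of 26 chitin and cuticle genes none held an OreR-absent peak, and their short spans (median 3715.5 bp) held only 28 high peaks, which allows a share of up to 12.1% by the Wilson interval. Of the 15 compared by limma, *Edg91* and *Ddc* were lower in eworo, none was higher, and 8 had an unadjusted p under 0.05. Among all compared, 1.73% were higher and 0.908% lower, and 15.3% had an unadjusted p under 0.05.

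Of 22 neuron and glia genes 4 held OreR-absent peaks (*Ten-m*, *robo2*, *sli* and *Ten-a*; 8 of 154 high peaks), as did 3 of 17 muscle genes (*sls*, *twi* and *Mef2*; 8 of 138). These cell types are part of the dissected leg. All 7 epidermal markers (among them *Dll*, *dac* and *hth*) and all 4 muscle markers averaged more than 1 FPKM in each strain, but *Mhc*, the muscle myosin heavy chain, was at 0.472, 47.6 and 0.969 FPKM in eworo, against 6.28, 77.4 and 4.66 FPKM in OreR. Both glial markers were lower in every eworo library than in any OreR library, and their sum ranged from 13.6 to 18.4 FPKM in eworo legs, against 21.1 to 97.7 FPKM in OreR. Of these, *moody* spread from 7.91 to 11.9 FPKM in eworo, against 12.3 to 90.1 FPKM in OreR. The gut markers also did not overlap, with 20.3 to 22.3 FPKM in eworo, against 27.4 to 30.6 FPKM in OreR, nearly all of it *Myo31DF*. The sums of the other 7 types overlapped between the strains, although some of their single markers did not. *apolpp*, *btl* and *up* were lower in every eworo library than in any OreR library, and *Hml* and *verm* were higher. How many of all genes separate in this way is not given, so that no weight rests on any of these markers. The summed muscle markers ranged from 88.1 to 190 FPKM in eworo legs, against 146 to 209 FPKM in OreR legs, and the summed tracheal markers from 76.5 to 85.7 FPKM in eworo legs, against 74 to 81.2 FPKM in OreR. The wing markers *vg* and *nub* summed to 161 FPKM in OreR replicate 2 and to 22.1 to 29.3 FPKM in the other libraries. The part of these differences in the peaks was not tested.

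Among the loci of known relevance to these strains, 2 held an OreR-absent peak. *jigr1* (3R:25637843-25651874), the host gene of *mir-92a*, held 1 among 7 high peaks, with 68 tags and a fold of 1.83 at 25647385-25647440. Its summit lay 182 bp from an OreR summit and 809 bp from the *mir-92a* hairpin (25646506-25646600), the microRNA known to repress *shavenoid* and enlarge the naked valley. The distance to the hairpin was looked up after the values had been seen. *jigr1* RNA, counted together with neighbours, was at 94.3, 83.9 and 97.8 FPKM in eworo legs, against 84.2, 71.4 and 66.1 FPKM in OreR. The Hox gene *Ubx* held 1 among 12 high peaks (63 tags, fold 1.86, 3R:16722837-16722913), 358 bp from an OreR summit, and the spread of its RNA, 3.96 and 8.67 FPKM and a listed 0 in eworo against 12.6, 5.77 and 8.04 FPKM in OreR, overlapped between the strains.

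No OreR-absent peak lay in the spans of *ovo* (the gene of *shavenbaby*), *sha* (*shavenoid*), *Ddc*, *e* or *ro*, the last 2 of which are mutant in eworo. These spans held few high eworo peaks in all, 3 in *ovo*, 1 in *sha* and 0 in the others, so that little could be found there. The nearest was 6.4 kb from *ovo*, within the same Cuffdiff locus (X:5041848-5041944, 64 tags, 311 bp from an OreR summit). It was 127 kb from *sha*, 42.8 kb from *Ddc* and 101 kb from *e*. A peak of 60 tags at 3R:26882853-26882920 lay 1.7 kb from *ro*. For *ovo* the span is not the whole regulatory region. The paper places embryonic *shavenbaby* enhancers upstream of the transcription start, over a stretch longer than this span. The high eworo peaks of that stretch were not counted here.

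For the expression comparison a gene counted as holding an OreR-absent peak when the summit fell in its Cuffdiff locus, which often covers several genes. Such loci held 599 of the 754 peaks, in 403 of 12044 loci. Of 4848 genes or joined groups compared, 280 were in these loci. limma found 2 of them higher in eworo (0.714%) and 3 lower (1.07%) at an adjusted p under 0.05, against 1.73% higher and 0.908% lower among all compared. These are 2 and 3 genes, and their place against that background changed with the setting. At a lowest pileup of 50 tags 21 of 1007 were higher (2.09%) and 8 lower (0.794%). Without eworo replicate 2 it was 4 of 282 higher (1.42%) and 7 lower (2.48%), against 1.92% and 1.24% of all compared. With the narrower RefSeq span, 201 were compared, with 1 higher and 1 lower. No statement about such genes as a group rests on these counts.

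The largest log2 difference among the 5 was in *CR40469*, a non-coding RNA of 214 bp at X:122493-122706. An OreR-absent peak of 68 tags with a fold of 2.94 (122594-122672) lay inside it, on the genome-wide background and 1424 bp from the nearest OreR summit. Its RNA was at 5874, 6673 and 6228 FPKM in eworo, against 485, 390 and 351 FPKM in OreR, with no overlap between the strains. The log2 difference was 3.95 ± 0.14 (SE, limma adjusted p = 0.000162), and it passed under all 13 alternatives run. The authors' pooled values were 5355 FPKM in eworo legs, against 24.6 FPKM in OreR legs, so that the pooled OreR value lay far below the OreR libraries. FPKM of so short a gene rest on few positions. A second OreR-absent peak of 69 tags, at X:96774-96854, lay 25682 bp from it in the same stretch of 65013 bp between OreR summits.

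A peak of 68 tags on 2L (5742635-5742771, fold 2.08) lay inside *CG11030* (2L:5724656-5762420), in whose locus 2 other genes were lower in eworo. *CG11030* itself was at 14.9, 14.3 and 13.8 FPKM in eworo, against 18.0, 21.1 and 17.3 FPKM in OreR, and its log2 difference of -0.36 ± 0.11 did not pass (limma adjusted p = 0.223). *CG11147*, 1434 bp away, was at 7.07, 8.65 and 7.40 FPKM in eworo, against 51.7, 75.4 and 67.0 FPKM in OreR. Its log2 difference was -2.90 ± 0.17 (adjusted p = 0.00136). *CG11029*, 3479 bp away, was at 1.68, 1.26 and 1.47 FPKM in eworo, against 6.94, 6.998 and 6.06 FPKM in OreR, with a difference of -1.63 ± 0.14 (adjusted p = 0.00578). The groups did not overlap for any of the 3 genes, *CG11030* among them, although it did not pass. The share of all compared genes without overlap is not given here, so that no weight rests on this.

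*Cyp6a2*, a cytochrome P450 of xenobiotic metabolism, was at 12.7, 11.1 and 9.74 FPKM in eworo, against 2.22, 3.04 and 2.05 FPKM in OreR (log2 difference 1.83 ± 0.17, adjusted p = 0.00777). Its locus on 2R held 2 OreR-absent peaks, the nearer with 61 tags (6777706-6777794) 2009 bp from the gene. Both peaks lay inside *Epac*, the other gene of the locus, which was at 24.3, 31.9 and 25.0 FPKM in eworo, against 21.8, 24.9 and 24.6 FPKM in OreR (log2 difference 0.18 ± 0.14, adjusted p = 0.538). *CG6398* on X, whose span held 2 with up to 65 tags, was at 185, 165 and 179 FPKM in eworo, against 283, 319 and 270 FPKM in OreR. Its log2 difference of -0.71 ± 0.10 passed at an adjusted p of 0.0286, but not when any 1 of the 6 libraries was left out (0.0252 to 0.252 over all alternatives).

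**Figure D5:**
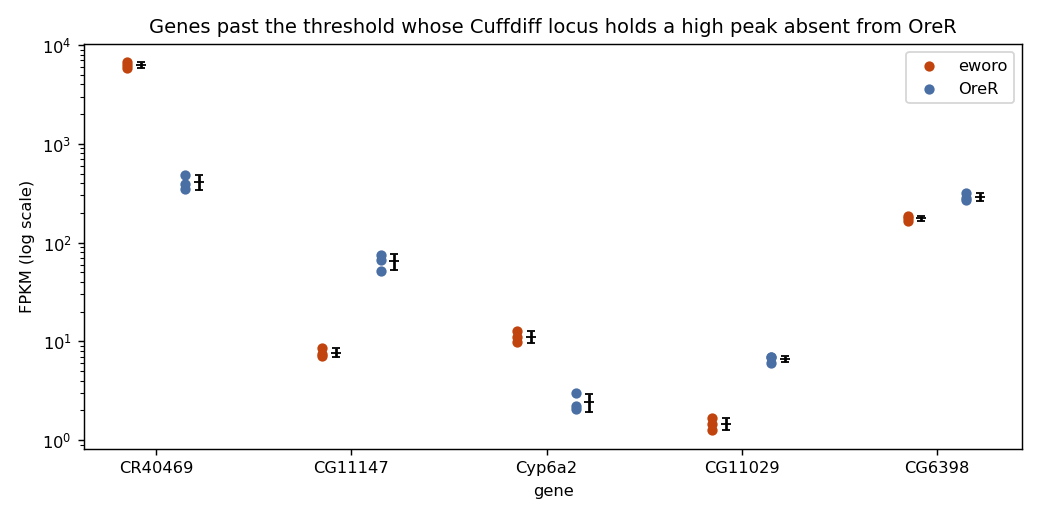
FPKM (log scale) of the 5 genes past the threshold whose Cuffdiff locus holds an OreR-absent peak, with eworo left of OreR. Points are libraries, and black marks are the mean and SD of 3. *CR40469* and *Cyp6a2* are higher in eworo, and *CG11147*, *CG11029* and *CG6398* are lower. The strains do not overlap for any of the 5, which were chosen by a test on these same libraries.

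*GstD1*, which encodes a glutathione S-transferase, held its OreR-absent peaks close together. All 3 high eworo peaks with their summit in its span of 1452 bp (3R:12367817-12369268) were absent from OreR. They had 67 tags (12367932-12368031), 63 tags (12368204-12368304) and 66 tags (12368449-12368534) and folds of 1.70 to 1.85. Another with 73 tags (12369748-12369832) followed downstream in coordinates, so that 4 lay within 1901 bp. An eworo peak of 84 tags before the first of them was shared with an OreR peak of 74 tags. Another of 84 tags, between those of 66 and 73 tags (12368862-12369631), was shared with an OreR peak of 78 tags. It begins inside the span of *GstD1*, with its summit beyond the end. The entry that holds *GstD1*, joined with *GstD10* and in some libraries with *GstD9*, was at 2693, 2082 and 2370 FPKM in eworo, against 1266, 1368 and 1161 FPKM in OreR. Because of the joining it was not among the genes compared. In the alternative that gives every gene the value of its entry the log2 difference was 0.90 ± 0.12 (adjusted p = 0.0408). Of 13 detoxification genes matched to the annotation, *GstD1* was the 1 that held such peaks. Of the 4 of them compared by limma, *Cyp6a2* was higher in eworo and *Cyp4d8* and *CHKov1* were lower. Among all compared, 1.73% were higher and 0.908% lower. Neither the locus nor the span of *Cyp4d8* or *CHKov1* held an OreR-absent peak.

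The level of the genes that held an OreR-absent peak differed between the strains along with their length. The 159 single genes compared whose RefSeq span held one had a median log2 difference of -0.24 between eworo and OreR, against -0.01 over all entries compared. For those with spans of 10 kb or more the median was -0.32 (116 genes), against -0.26 for the 620 genes of such spans without an OreR-absent peak. For shorter spans it was 0.08 (43 genes), against 0.04 for 3040 genes. The lower level was thus shared by long genes with and without OreR-absent peaks. By library, the median deviation of the 116 long genes from their mean was -0.53, 0.27 and -0.19 in eworo, against 0.17, 0.01 and 0.34 in OreR, so that the libraries of the strains overlapped.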

How the data were processed

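Second legs of eworo and OreR pupae were profiled by RNA-Seq (3 stranded mRNA libraries per strain, 75 bp paired ends) and by ATAC-Seq (3 samples per strain, 50 bp paired ends, 15 PCR cycles). For the ATAC-Seq the authors aligned reads with Bowtie2, removed duplicates with SAMtools, shifted the reads and deposited 1 peak list per strain from MACS2 (2.1.1.20160309 in the file header), called without a control at a q-value of 0.01. Each peak has a deposited pileup signal in tags, a ratio (fold) over the local background and a −log10 q-value. The pileup is not scaled between strains. The local background was recovered here as (pileup + 1) / fold − 1. For the RNA the authors deposited FPKM per gene and library (TopHat2 2.1.1, Cufflinks 2.2.1), not scaled between libraries, and a Cuffdiff table with 1 pooled FPKM per strain. The p-values of that comparison hold the study's own results and were not used.

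Peaks overlapped with at least 1 bp. Genes came from the RefSeq annotation of Release 6, without strand. A summit inside a gene's first and last base counted as held by it, whether exonic or intronic. Gene IDs of the Cuffdiff table were matched to symbols for 17344 of 17565. Entries with the same name in all 6 libraries and a mean above 1 FPKM were compared on log2(FPKM + 1), which understates changes of low genes, with limma 3.58.1 in R 4.3.3 (lmFit and eBayes with a trend, Benjamini-Hochberg adjusted p under 0.05), after division by a median-ratio factor per library (0.998 to 1.01). The test was run on simulated libraries first, and the overlap on simulated lists. Nothing in the labels ties the 3 libraries of a strain to separate crosses, so p-values measure the spread between these samples. Wilson intervals cover counting error only. Python 3.11.15, numpy 2.4.6, pandas 2.3.3, scipy 1.17.1 and matplotlib 3.10.9 were used.

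The OreR-absent peaks, the gene lists and the choice of named genes were made with earlier results of these data known. Named were the highest peaks and the genes that hold them, the loci with the most peaks, the genes past the threshold, up to 4 genes per list by pileup, and *e*, *ro*, *jigr1*, *ovo*, *sha*, *Ubx* and *Ddc*. The sites at chromosome ends, the isolated peaks and *mir-92a* were added after their values had been seen. *TrissinR*, *CG15740*, *OdsH* and *fz2* meet none of the naming rules and are examples from the peaks at the genome-wide background. No genome sequence or strand was used, so that planned sequence features and distances to gene starts were not computed.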

Additional observations from a re-analysis of the deposited data

Results flagged for a closer look

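Outside the 6 arms 11 of 43 high eworo peaks had no OreR partner, and no comparison above uses them. They lay on the mitochondrial genome (2 peaks, of 85 and 91 tags), the ribosomal DNA (2, of 63 and 69 tags), the Y chromosome (1, of 60 tags) and 4 unplaced sequences (6, of 62 to 69 tags). Their pileups were not compared between the strains.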

How the results depend on the processing

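The number of OreR-absent peaks depends on the rule. It was 3379 with a lowest pileup of 50 tags, 11 with 80 tags, 1210 where an OreR peak had to cover at least 50% of the eworo peak to count as shared, 280 where an OreR peak within 500 bp also counted, and 252 with a −log10 q of at least 5. In the first 4 of these settings, in the same order, the median distance to the nearest OreR summit was 533, 645, 255 and 1312 bp, and the share at the genome-wide background was 19.3, 27.3, 10.7 and 18.2%. The median length was 80, 104 and 112.5 bp in the first 3. The share inside a gene span was 36.4% at 80 tags. Runs of 2 or more held 41.4% of the peaks with summits joined within 5 kb and 56.6% within 20 kb.

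Among genes in a locus with an OreR-absent peak, 21 of 1007 compared were higher in eworo (2.09%) and 8 lower (0.794%) at a lowest pileup of 50 tags, against 1.73% and 0.908% of all compared. At 80 tags it was 0 and 0 of 4 compared by limma, with 1 at an unadjusted p under 0.05. With the RefSeq span, an alternative chosen after seeing the data, it was 1 and 1. Over fits without 1 library the counts ranged from 2 to 4 higher and from 2 to 7 lower. With a replicate block it was 1 and 1 (14 higher and 13 lower among all compared). The deviations of same-numbered libraries from their strain means had correlations of -0.037, -0.109 and 0.05. With 3 libraries per strain these values cannot decide whether the numbers pair the samples. In all, 10 of 64 repeats for the 5 named genes lost the call: 8 for *CG6398* and, under the replicate block, 1 each for *Cyp6a2* and *CG11029*. None changed direction.

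Absence from the OreR list is not a measured absence of signal. At the background of the nearest OreR peak, 5.91% of the 728 OreR-absent peaks with an OreR summit within 5 kb had an eworo pileup at or below the computed limit. That limit is itself a lower bound for a call in OreR. Pooled lists leave the spread between ATAC-Seq replicates unknown, and an effect of depth was not tested.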
